A study of Homo sapiens with 3 samples.

Results

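The genes described here are the small noncoding RNA genes that received a value in libraries made from polyA+ mRNA. They were chosen by symbol alone: symbols that begin with SNORD, SNORA, SCARNA, RNU, RNY, VTRNA or MIRLET, or that consist of MIR and a number with an optional suffix. The rule found 328 of the 18856 symbols listed in at least 1 of 3 libraries. They were 107 box C/D small nucleolar RNAs (snoRNAs), 71 H/ACA snoRNAs, 15 small Cajal body RNAs (scaRNAs), 129 microRNA (miRNA) genes, 3 symbols beginning with RNU, 1 vault RNA and 2 let-7 host genes, MIRLET7BHG and MIRLET7DHG, which the prefix also matched. The 3 libraries were low-input, equal-amplification (LIEA) libraries of HBE cells, a cell line of human bronchial epithelium, and of A549 cells, a line from an adenocarcinoma of the lung, and a Smart-seq2 library of HBE. The labels name no treatment, and each library began with 10 pg of polyA+ mRNA that had been diluted from bulk RNA. In LIEA the mRNA was cut with RNase III and adapters were ligated to the fragments. The cDNA was then amplified by PCR and read on an Ion Torrent sequencer. In Smart-seq2 an oligo-dT primer started the cDNA, which was also amplified by PCR before the Illumina library was made. Each condition had 1 library, so no difference between libraries has a replicate check and no test was made; intervals are 95% intervals that cover counting error only, and PCR reads without molecular identifiers are not independent molecules.

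snoRNAs are nucleolar RNAs that direct chemical marks onto ribosomal RNA. Box C/D snoRNAs guide 2′-O-methylation and H/ACA snoRNAs guide pseudouridylation, while scaRNAs do the same for spliceosomal RNAs in the Cajal body. In human cells most of them are cut from introns of host genes, among them genes for ribosomal proteins and translation factors, and carry no polyA tail. A miRNA is cut by DROSHA and then DICER1 from a hairpin within a longer, usually polyadenylated primary transcript. Y RNAs and vault RNAs are short RNA polymerase III transcripts.

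The sequences below belong to snoRNA genes that were among those with most reads in their class and could be placed on the genome, and they show the short boxes by which the classes are recognised. Capitals mark TGATGA within the first 25 bases, CTGA within the last 25 bases and ACA within the last 8 bases, each read on the transcript strand only.
SNORD86, chr20:2636743-2636828 (GRCh37, plus strand): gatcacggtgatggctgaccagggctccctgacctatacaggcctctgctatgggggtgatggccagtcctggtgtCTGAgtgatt
SNORD42A, chr17:27050447-27050510 (GRCh37, plus strand): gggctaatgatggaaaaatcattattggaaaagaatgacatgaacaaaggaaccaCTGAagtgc
SNORD34, chr19:49994161-49994231 (GRCh37, plus strand): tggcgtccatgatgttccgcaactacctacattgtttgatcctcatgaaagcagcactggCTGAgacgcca
SNORD32A, chr19:49993222-49993305 (GRCh37, plus strand): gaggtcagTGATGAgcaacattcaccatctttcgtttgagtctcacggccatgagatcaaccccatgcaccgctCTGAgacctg
SNORA64, chr16:2012974-2013107 (GRCh37, minus strand): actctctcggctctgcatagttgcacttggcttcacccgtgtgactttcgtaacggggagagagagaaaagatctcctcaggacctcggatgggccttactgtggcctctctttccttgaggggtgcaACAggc
SNORA70, chrX:153628622-153628756 (GRCh37, plus strand): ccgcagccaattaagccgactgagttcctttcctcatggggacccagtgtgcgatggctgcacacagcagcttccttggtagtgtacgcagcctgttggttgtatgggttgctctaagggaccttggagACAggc
SNORA10, chr16:2012335-2012467 (GRCh37, minus strand): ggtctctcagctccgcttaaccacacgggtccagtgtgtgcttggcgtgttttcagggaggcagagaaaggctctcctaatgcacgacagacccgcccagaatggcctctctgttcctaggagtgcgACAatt

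CTGA lay near the 3′ end of all 75 box C/D members that could be placed, and of 4 of 48 H/ACA members (8.33%). TGATGA lay near the 5′ end of 47 of the 75 box C/D members (62.7%) and of 0 of the 48 H/ACA members. ACA lay at the 3′ end of 44 of the 48 H/ACA members (91.7%) and of 7 of the 75 box C/D members (9.33%). The box C/D genes of the annotation that had no value in any library held CTGA in 150 of 174 cases (86.2%) and TGATGA in 129 (74.1%). The corresponding H/ACA genes held ACA in 40 of 46 cases (87.0%). The class given by the symbol was thus matched by these letters in most members. None of the 3 motifs contains another, and a match describes letters, not a bound protein.

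Of the miRNA members, 115 had a mature sequence in the RefSeq table (GRCh38.p14), 175 mature sequences in all. Mature forms are given for 6 miRNA genes described below, with the seed, bases 2 to 8, in capitals, together with a pair of members that share a seed.
hsa-miR-6722-3p: uGCAGGGGucgggugggccagg
hsa-miR-614: gAACGCCUguucuugccaggugg
hsa-miR-4460: aUAGUGGUugugaauuuaccuu
hsa-miR-205-5p: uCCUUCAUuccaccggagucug
hsa-miR-613: aGGAAUGUuccuucuuugcc
hsa-miR-221-3p: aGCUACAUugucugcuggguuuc
hsa-miR-98-5p: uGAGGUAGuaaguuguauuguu
hsa-let-7d-5p: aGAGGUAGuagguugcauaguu

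Of 169 seeds, 6 were shared by more than 1 member. They joined MIR98 with MIRLET7D, MIR24-1 with MIR24-2 (both arms), MIR941-1 with MIR941-2, MIR3125 with MIR3916 and MIR6751 with MIR6803. The mature sequences were 17 to 26 nt long (median 22). Ion Torrent reads were kept only above 42 nt, so a read counted on a miRNA gene in the LIEA libraries was longer than any of these mature forms. The values of miRNA genes below are therefore values of hairpin genes, not levels of mature miRNAs.

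The reads behind each value were recovered from the deposited log2 rpkM (reads scaled to a kilobase of transcript and to 1000000 mapped reads). With the lengths of the members in the annotation, the values became whole reads at totals of 4605855 reads in HBE LIEA, 4154060 in A549 LIEA and 9845150 in HBE Smart-seq2. All 328 members gave whole reads, and 303 of the 322 that could be compared (94.1%) did so at exactly the annotated length. All 5 epithelial markers were listed in each library. KRT18 stood at a log2 rpkM of 9.54, 12.07 and 10.82, in the order HBE LIEA, A549 LIEA, HBE Smart-seq2, which is kept below, and EPCAM at 5.84, 2.87 and 8.01, and the basal bronchial marker KRT5 was high in both HBE libraries and low in A549 (9.11, 0.91 and 8.67). Of the 8 blood, endothelial and fibroblast markers examined, the highest value was 2.68 (COL1A1 in HBE LIEA). CDKN2A, CDKN2B and MTAP lie in a region that A549 cells are generally held to have lost. CDKN2A and CDKN2B had no value in any library, so they could not tell the cell lines apart. MTAP was listed at 1.07 in A549 LIEA, against -3.50 and -1.01 in the HBE libraries, so this gene went against the label of that library. In bulk RNA, fewer cells of a type and less RNA per cell cannot be told apart.

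Most of the members were scarce, and many were seen in a single library. In HBE LIEA 152 of the 328 members were listed (46.3%), in A549 LIEA 142 (43.3%) and in HBE Smart-seq2 226 (68.9%). Of all 18856 symbols, 85.2% were listed in HBE LIEA, 88.6% in A549 LIEA and 87.5% in HBE Smart-seq2. The members were thus listed less often than symbols in general, with the widest gap in the LIEA libraries. In all 3 libraries 60 members were listed (18.3%, against 75.1% of all symbols). A further 196 were listed in 1 library, and 135 of those rested on a single read.

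The classes were unequally covered. Of the 357 box C/D genes in the annotation, 18.2% were listed in HBE LIEA, 14.8% in A549 LIEA and 21.6% in HBE Smart-seq2. Of the 182 H/ACA genes the shares were 18.7%, 20.9% and 28.0%, and of the 29 scaRNA genes 27.6%, 27.6% and 31.0%. Of the 1881 miRNA genes, only 2.02%, 1.91% and 4.20% were listed. By these shares a snoRNA gene was listed several times more often than a miRNA gene in each library. The annotation counted here is later than the RefSeq sequences to which the study mapped its reads. Genes absent from those sequences could not be listed, so the shares are not detection rates. None of the 4 Y RNA genes was listed, and 3 reads, taken here as the limit that a count of 0 allows, would have been 0.651, 0.722 and 0.305 RPM (reads in 1000000 mapped reads). Among genes looked up by name, MIR21, MIR17, MIR22, MIR210, MIRLET7A1 and MIRLET7I had no value in the libraries used here. VTRNA2-1, a vault RNA, had 1 read in A549 LIEA and was not listed in the HBE libraries. Of the minor spliceosome RNAs, RNU11 had 1 read in A549 LIEA and RNU12 1 read in HBE Smart-seq2. RNU86, an older symbol that was grouped here by its prefix alone, had 2 reads in HBE Smart-seq2.

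The larger number of members in HBE Smart-seq2 went with its larger total. If its reads were thinned to the total of HBE LIEA, 46.8% of them would remain and 152 members would be expected (SD of thinning 6.32), against the 152 listed in HBE LIEA. By class the numbers lay further apart. Box C/D snoRNAs numbered 65 in HBE LIEA and 51.0 (SD 3.75) in thinned HBE Smart-seq2. H/ACA snoRNAs numbered 36 and 41.4 (SD 2.73), and miRNA genes 41 and 49.2 (SD 4.08). At an equal total of mapped reads HBE LIEA listed more box C/D genes than HBE Smart-seq2. Its numbers of H/ACA and miRNA genes were lower by about 2 SD of the thinning, which leaves out the sampling error of HBE LIEA itself, and read length and duplication were not matched. The libraries also named different genes: 94 members were in both, which is 61.8% of those in HBE LIEA and 41.6% of those in HBE Smart-seq2. For all symbols these shares were 93.1% and 90.7%. Among the 3 large classes, H/ACA members of HBE LIEA were found in HBE Smart-seq2 most often (31 of 36, 86.1%), then box C/D members (43 of 65, 66.2%) and miRNA genes (13 of 41, 31.7%).

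**Figure D1:**
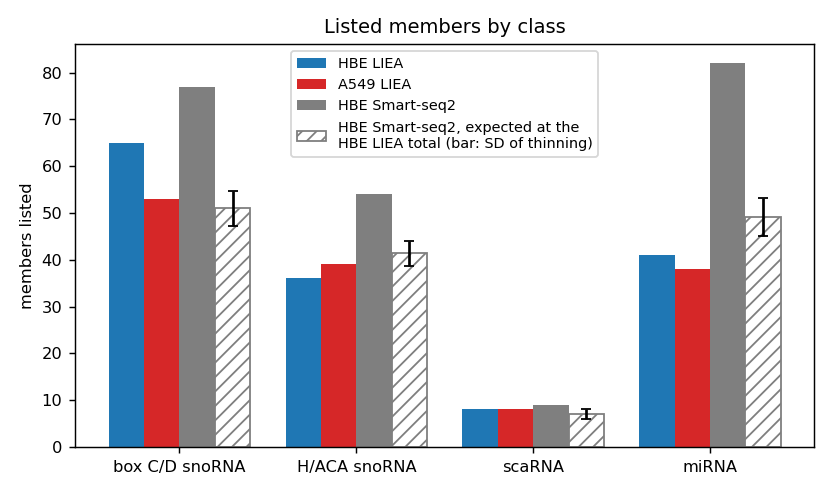
Members listed in each library by class (vertical axis, number of members; solid bars, 1 library each), with hatched bars for the number expected if the HBE Smart-seq2 reads were thinned to the HBE LIEA total (error bar, SD of thinning). The solid HBE Smart-seq2 bar is the highest in every class shown, but its hatched bar falls below HBE LIEA for box C/D snoRNAs (51.0 against 65) and stays above it for miRNA genes (49.2 against 41).

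A value of a small RNA gene could rest on very few reads. On a gene of 80 nt, 1 read gave an rpkM of 2.71 in HBE LIEA, 3.01 in A549 LIEA and 1.27 in HBE Smart-seq2, whereas on a transcript of 2000 nt it gave 0.109, 0.120 and 0.0508. A single read thus placed a gene of 80 nt above an rpkM of 1 in each library, whereas at the length of most H/ACA genes this held in the LIEA libraries and not in HBE Smart-seq2, where 38 of the 54 listed H/ACA genes exceeded 1. Members with 1 read were 73 of 152 in HBE LIEA (48.0%), 65 of 142 in A549 LIEA (45.8%) and 106 of 226 in HBE Smart-seq2 (46.9%). An rpkM above 1 was reached by 147, 139 and 191 members, and 130, 126 and 174 of these had fewer than 10 reads, the minimum for a quantified gene in the methods of the study. Of the 18856 symbols listed in any library, 64.2%, 66.4% and 60.3% had an rpkM above 1. On that base the counts of members are out of 328, a smaller share than for all symbols in each library. Members with at least 10 reads numbered 17, 14 and 17.

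**Figure D2:**
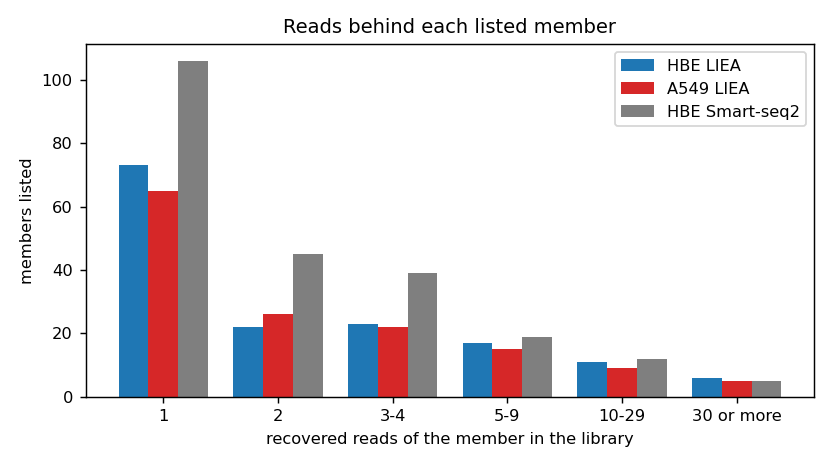
Number of listed members (vertical axis) by the recovered reads behind the value (horizontal axis, reads of the member in that library), for the 3 libraries. The leftmost bars, members with 1 read, hold 73, 65 and 106 members, and members with 30 reads or more number 6, 5 and 5.

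The reads lay on few genes. The members together took 0.0633% of the mapped reads in HBE LIEA (2915 reads), 0.148% in A549 LIEA (6141 reads) and 0.0164% in HBE Smart-seq2 (1619 reads). MIR6723, annotated as a miRNA gene, had 2067 reads in HBE LIEA, 5478 in A549 LIEA and 673 in HBE Smart-seq2, at a recovered length of 89 nt. It held 70.9%, 89.2% and 41.6% of the members' reads. Its log2 rpkM was 12.30, 13.85 and 9.59. Without MIR6723 the members had 184 RPM in HBE LIEA, 160 in A549 LIEA and 96.1 in HBE Smart-seq2, so the order of the 2 LIEA libraries turned when this gene was left out. These totals still held the 2 let-7 host genes, which are not small RNAs and took 24.5, 4.33 and 11.6 RPM. Most of the remaining gap between the LIEA libraries lay on them.

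**Figure D3:**
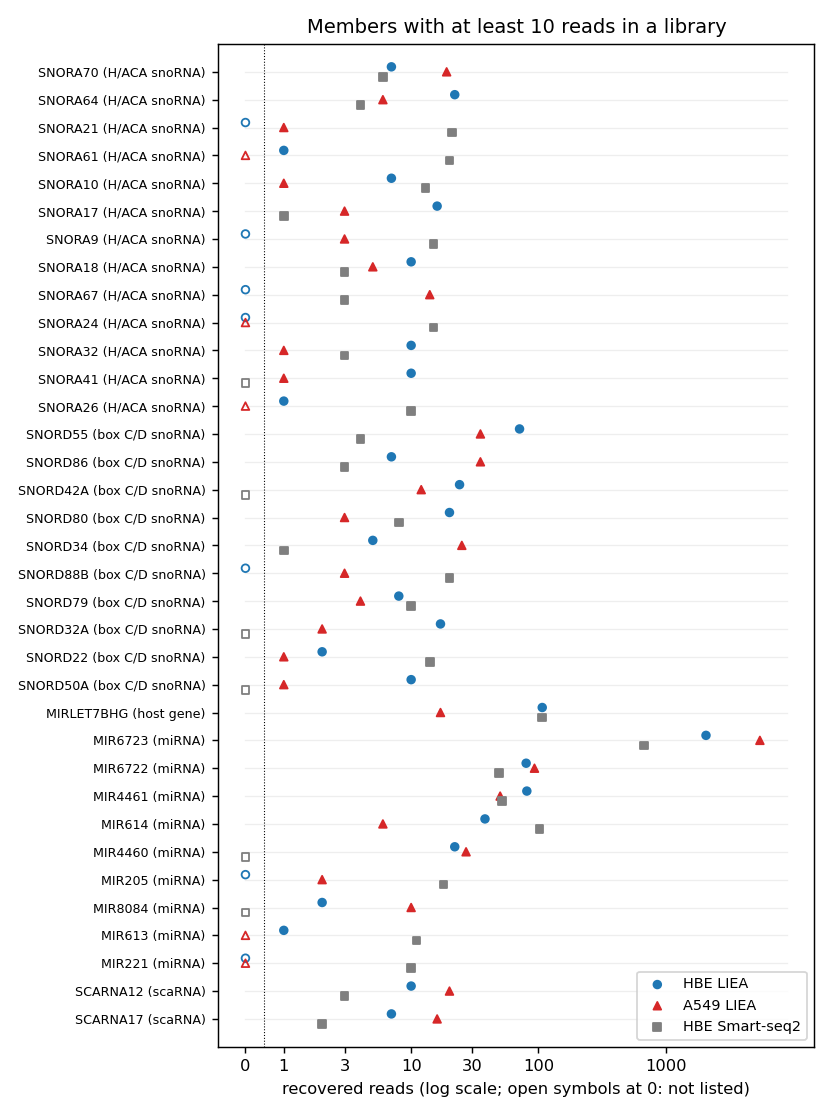
Recovered reads (horizontal axis, log scale, with unlisted members as open symbols at 0) of every member with at least 10 reads in a library, grouped by class, with 1 point per library. MIR6723 stands apart from the rest with 673 to 5478 reads, SNORD55 and SNORD42A lie higher in both LIEA libraries than in HBE Smart-seq2, and SNORA21, SNORA24 and SNORD88B lie at 15 to 21 reads in HBE Smart-seq2 and at 0 in HBE LIEA.

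Box C/D snoRNAs took 59.3 RPM (interval 52.4 to 66.7) in HBE LIEA, 53.2 (46.4 to 60.7) in A549 LIEA and 20.7 (17.97 to 23.8) in HBE Smart-seq2. In HBE they were 2.86-fold higher by LIEA than by Smart-seq2 (2.38 to 3.45), and A549 LIEA was 0.898-fold of HBE LIEA (0.748 to 1.08). SNORD55 had 71 reads in HBE LIEA, 35 in A549 LIEA and 4 in HBE Smart-seq2 (log2 rpkM 7.70, 6.83 and 2.46). That was the most of the class in HBE LIEA and a tie with SNORD86 in A549 LIEA. In HBE Smart-seq2 SNORD88B had the most, with 20 reads. The level of SNORD55 by LIEA of HBE was 37.9-fold that by Smart-seq2 (14.2 to 143), while A549 stood 1.83-fold lower than HBE (1.20 to 2.83). SNORD42A, in an intron of RPL23A, had 24, 12 and 0 reads (6.37 and 5.52 in the LIEA libraries). It was at least 17.1-fold higher in HBE LIEA than 3 reads would have been in HBE Smart-seq2. SNORD32A, in the gene of the ribosomal protein RPL13A, had 17, 2 and 0 reads. SNORD50A had 10, 1 and 0 reads. All 4 of these box C/D genes were highest in HBE LIEA and had at most 4 reads in HBE Smart-seq2. They were named for their reads in HBE LIEA, and all but SNORD55 also for having none in HBE Smart-seq2. The choice therefore set this pattern. SNORD80 was also highest in HBE LIEA, with 20, 3 and 8 reads.

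Other box C/D snoRNAs were higher elsewhere. SNORD86, within an annotated exon of the snoRNP protein gene NOP56, had 7, 35 and 3 reads. It was 5.54-fold higher in A549 than in HBE by LIEA (2.43 to 14.8). SNORD34, in an intron of RPL13A, had 5, 25 and 1 reads and was also 5.54-fold higher in A549 (2.08 to 18.5). SNORD88B had 0, 3 and 20 reads, at least 3.12-fold higher in HBE Smart-seq2 than 3 reads would have been in HBE LIEA. No protein-coding or long noncoding RNA gene that contains SNORD88B was found, and other gene types were not searched. SNORD22 had 2, 1 and 14 reads. The class total therefore hid members that went either way between the methods and between the cell lines.

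H/ACA snoRNAs were nearer to each other in total, at 30.4 RPM (25.6 to 35.9) in HBE LIEA, 25.04 (20.5 to 30.3) in A549 LIEA and 24.2 (21.2 to 27.4) in HBE Smart-seq2. The ratio of the HBE libraries was 1.26 (1.01 to 1.56). Single members differed much more. SNORA64, in an intron of the ribosomal protein gene RPS2, had 22, 6 and 4 reads and was 11.8-fold higher by LIEA than by Smart-seq2 in HBE (3.99 to 46.9). SNORA17 had 16, 3 and 1 reads, a ratio of 34.2 between the methods (5.31 to 1434), and SNORA41, in an intron of EEF1B2, had 10, 1 and 0. SNORA70, in an intron of RPL10, had 7, 19 and 6 reads and was 3.01-fold higher in A549 than in HBE (1.21 to 8.47). In HBE these members had more RPM by LIEA than by Smart-seq2, although the interval of SNORA70 included a ratio of 1 (2.49, 0.718 to 8.98). SNORA41 was named for having no value in HBE Smart-seq2, and SNORA17 and SNORA70 after their values were seen.

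Other H/ACA snoRNAs had most reads in HBE Smart-seq2, and SNORA21, SNORA24 and SNORA9 were named because HBE LIEA did not list them. SNORA21 had 0, 1 and 21 reads, at least 3.27-fold higher in HBE Smart-seq2 than 3 reads would have been in HBE LIEA. SNORA61 had 1, 0 and 20 reads, 9.36-fold higher by Smart-seq2 (1.497 to 388). SNORA24 had 0, 0 and 15 reads and SNORA9 had 0, 3 and 15. SNORA67 differed from these, with 0, 14 and 3 reads, and was at least 5.17-fold higher in A549 LIEA than 3 reads would have been in HBE LIEA.

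The scaRNA genes had 26, 51 and 29 reads. SCARNA12, in an intron of the prohibitin gene PHB2, had 10, 20 and 3 reads and was 7.13-fold higher by LIEA than by Smart-seq2 in HBE (1.83 to 40.3). SCARNA17 had 7, 16 and 2 reads. SCARNA2 ran the other way between the methods, with 1, 5 and 9 reads. Summed over the class, A549 LIEA was 2.17-fold of HBE LIEA (1.33 to 3.63). All 4 scaRNA genes listed in both LIEA libraries were at least 2-fold higher in A549 (of all symbols, 19.1%), and the counting interval of each included a ratio of 1.

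The miRNA genes took 513 RPM in HBE LIEA (493 to 534), 1383 in A549 LIEA (1347 to 1419) and 105 in HBE Smart-seq2 (98.4 to 111). MIR6723 set these totals: it was 6.57-fold higher by LIEA than by Smart-seq2 in HBE (6.02 to 7.17) and 2.94-fold higher in A549 than in HBE by LIEA (2.79 to 3.09). Without it, the class was 1.77-fold higher by LIEA than by Smart-seq2 (1.51 to 2.07) and stood at a ratio of 1 between the cell lines (0.844 to 1.18). The 6 miRNA genes listed in all 3 libraries were MIR6723, MIR6722, MIR4461, MIR614, MIR5047 and MIR941-1.

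MIR4461 had 81, 50 and 52 reads (log2 rpkM 7.89, 7.35 and 6.16), which was 3.33-fold higher by LIEA than by Smart-seq2 in HBE (2.32 to 4.81). It was placed at chr5:134263729-134263802 (GRCh37, plus strand) in an intron of PCBD2, whose own log2 rpkM was 0.79, 1.02 and 3.19. Of its 50 overlapping 25-base words, 12 also occurred in the mitochondrial genome, and it was the only placed member with any such word, so its reads could not be assigned to the nuclear gene with certainty. No position was assigned to MIR6723, and sharing of its reads with near-identical sequence elsewhere was not tested. MIR6722 had 80, 93 and 49 reads and lay at chr9:139641345-139641422 (GRCh37, minus strand) in an intron. It was 3.49-fold higher by LIEA than by Smart-seq2 in HBE (2.42 to 5.09), with a ratio of 1.29 between A549 and HBE whose interval included 1 (0.946 to 1.76).

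MIR614 lay in an exon of GPRC5A, an orphan receptor gene of lung epithelium, at chr12:13068763-13068852 (GRCh37, plus strand). It had 38, 6 and 102 reads, the most of any member but MIR6723 and the host gene MIRLET7BHG in HBE Smart-seq2. GPRC5A itself had a log2 rpkM of 7.78, 6.76 and 9.91, so the miRNA gene and its host stood in the same order, and reads of the host's exon cannot be told apart from reads of the hairpin. MIR205, the hairpin of a miRNA characteristic of basal epithelium, had 0, 2 and 18 reads, and it partly overlapped an exon of MIR205HG, which was listed at 7.24, 0.11 and 6.83. The host was thus high in both HBE libraries, while MIR205 was listed in one of them, at least 2.81-fold above 3 reads of HBE LIEA. MIR221 had 0, 0 and 10 reads and MIR613 1, 0 and 11. MIR4460, within no protein-coding or long noncoding RNA gene, had 22, 27 and 0 reads. That was at least 15.7-fold higher in HBE LIEA than 3 reads would have been in HBE Smart-seq2. MIR3189, in an intron of the stress-induced cytokine gene GDF15, had 1, 9 and 0 reads. MIR8084 had 2, 10 and 0.

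MIRLET7BHG, a spliced host transcript of let-7 miRNAs with a recovered length of 4717 nt, had 107, 17 and 107 reads (log2 rpkM 2.30, -0.20 and 1.20). It was 2.14-fold higher by LIEA than by Smart-seq2 (1.62 to 2.82) and 5.68-fold lower in A549 than in HBE (3.38 to 10.1). MIRLET7DHG had 6, 1 and 7 reads on 1349 nt. In A549 LIEA, 17 reads on MIRLET7BHG thus gave a log2 rpkM below the 1.59 of 1 read on a gene of 80 nt.

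Between the methods in HBE, 94 members could be compared. Of these, 55 (58.5%) were at least 2-fold higher by LIEA, against 30.1% of all symbols listed in both libraries, and 11 (11.7%) were at least 2-fold lower, against 20.7%. The median log2 ratio of these members was 1.10, and of all symbols listed in both 0.10. With log2(rpkM + 1) and unlisted members at 0, the median over the 284 members listed in either library was -0.74, so the direction rests on leaving unlisted members out. A gene with equal reads in both libraries has a log2 ratio of exactly 1.10, because the Smart-seq2 total is larger. Such a gene therefore counts as at least 2-fold higher by LIEA. The 55 members include 14 with 1 read in both libraries and others with equal counts above 1, such as MIRLET7BHG with 107 in each. The share of 58.5% thus rests in part on equal counts, and it was not set against symbols of similar read number. Counting intervals placed 17 members above a ratio of 1 and 1 member, SNORA61, below it, and those of the other 76 included 1. Between the cell lines by LIEA, 82 members could be compared. In A549, 27 (32.9%) were at least 2-fold higher, against 19.1% of all symbols, and 18 (22.0%) at least 2-fold lower, against 19.9%. Their median was 0.15, again the value of 1 read in both libraries, and that of all symbols was -0.11. Intervals placed 6 members above 1, 11 below it, and 65 included 1. In both comparisons the intervals were not adjusted for the number of members. The share of all symbols with an interval above or below 1 was not computed, so these counts have no baseline. Both comparisons use the same HBE LIEA library.

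**Figure D4:**
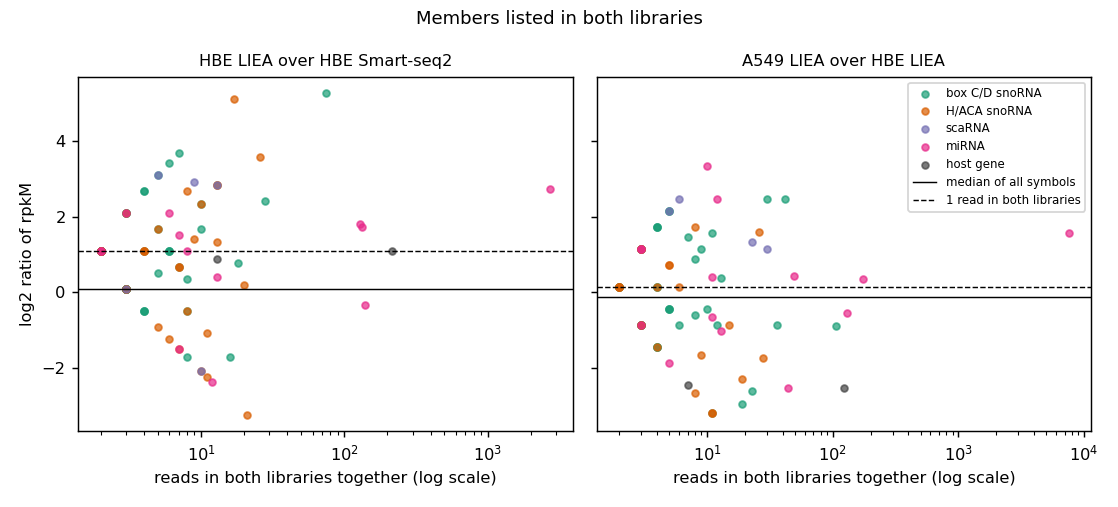
Log2 ratio of rpkM (vertical axis) against the reads of both libraries together (horizontal axis, log scale) for members listed in both libraries, coloured by class, for HBE LIEA over HBE Smart-seq2 (94 members) and A549 LIEA over HBE LIEA (82 members). The solid line is the median of all symbols (0.10 and -0.11) and the dashed line the ratio of 1 read in both libraries (1.10 and 0.15), and most members lie at the left, where ratios take few discrete values.

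The ratio of summed reads between the methods differed among groups of length. Leaving out MIR6723, the 116 members of 40 to 79 nt had 78.2 RPM in HBE LIEA and 22.5 in HBE Smart-seq2, a ratio of 3.47 (2.92 to 4.12). Most of the 360 reads of this group in HBE LIEA lay on SNORD55 (71), SNORD42A (24), MIR6722 (80) and MIR4461 (81). In HBE Smart-seq2 these genes had 4, 0, 49 and 52 of its 222 reads. The ratio of this group thus rests largely on few genes, and an effect of length itself was not tested. For the 83 members of 80 to 99 nt the ratio was 1.28 (1.04 to 1.56) and for the 40 of 100 to 129 nt 0.968 (0.673 to 1.37). It was 1.42 (1.14 to 1.76) for the 72 of 130 to 199 nt and 2.22 (1.25 to 3.96) for the 14 of 200 to 500 nt, so the ratio did not fall steadily with length. Class and length overlap, since box C/D genes had a median of 78 nt and H/ACA genes of 134 nt.

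Of the 328 members, 246 were placed on GRCh37. In the annotation 60 of them lay within an exon of at least 1 transcript of another gene on the same strand, 23 partly within one, and 147 in an intron. A further 6 overlapped a gene on the opposite strand, and 10 overlapped none. Only protein-coding and long noncoding RNA genes that contain the whole member were searched. For H/ACA genes, exonic members held 20.4%, 18.6% and 41.8% of the reads on placed members. Box C/D genes went the other way between the methods, at 54.2%, 44.5% and 23.9%. Over all placed members the shares were 31.3%, 24.1% and 34.2%. The strand used for counting is not given in the sources used here, and reads from an exon of the host, or from unspliced host RNA, cannot be told apart from reads of the small RNA.

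Most snoRNA genes had a lower rpkM than their hosts. Among intronic box C/D members listed together with their host, the median log2 difference of rpkM was -4.23 in HBE LIEA (n = 25), -4.36 in A549 LIEA (n = 16) and -6.37 in HBE Smart-seq2 (n = 27). For intronic H/ACA members it was -4.88 (n = 19), -5.19 (n = 17) and -5.69 (n = 19). Exceptions were SNORD17 and SNORD99, which stood above their hosts in A549 LIEA by 2.49 and 1.21, and SNORA47, which did so in HBE Smart-seq2 by 1.55. SNORD86, an exonic member, was close to its host NOP56 in A549 LIEA, with a difference of -0.12. Reads of the NOP56 exon cannot be told apart from reads of SNORD86. Within RPL13A, listed at 10.75, 11.48 and 8.19, SNORD32A was 2.94 lower and SNORD34 2.47 higher in A549 than in HBE on the log2 scale, SNORD35A had 3, 5 and 3 reads, and SNORD33 had 1 read in HBE Smart-seq2. Within RPS2, SNORA64 was 3.56 higher by LIEA than by Smart-seq2 and SNORA10 0.20 higher, with 7, 1 and 13 reads. Within TAF1D, SNORA18 had 10, 5 and 3 reads, SNORA32 10, 1 and 3, SNORA8 7, 2 and 3, and SNORA40 1, 2 and 9. snoRNA genes of 1 host thus did not share 1 pattern across the libraries.

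Among box C/D genes whose host was listed, the share listed was similar at low and high host levels in the LIEA libraries. The lowest range held only 11 genes in HBE LIEA and 20 in A549 LIEA. Host levels were looked up by symbol, and 7 of 118 host symbols were matched by an older name. Of box C/D genes of the annotation whose host was listed below 4, from 4 to 8, and at 8 or more (log2 rpkM), 36.4%, 39.5% and 40.8% were listed in HBE LIEA and 30%, 27.3% and 31.1% in A549 LIEA. In HBE Smart-seq2 the shares were 33.3%, 58.8% and 47.8%. Of H/ACA genes in the same ranges, 29.4%, 37.8% and 61.5% were listed in HBE LIEA, and 26.9%, 35.5% and 66.7% in A549 LIEA. In HBE Smart-seq2 the H/ACA shares were 17.6%, 61.0% and 50.0%. Where the symbol of the host had no value, which a further renamed symbol could also cause, 3, 2 and 5 of 111 box C/D genes were listed.

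**Figure D5:**
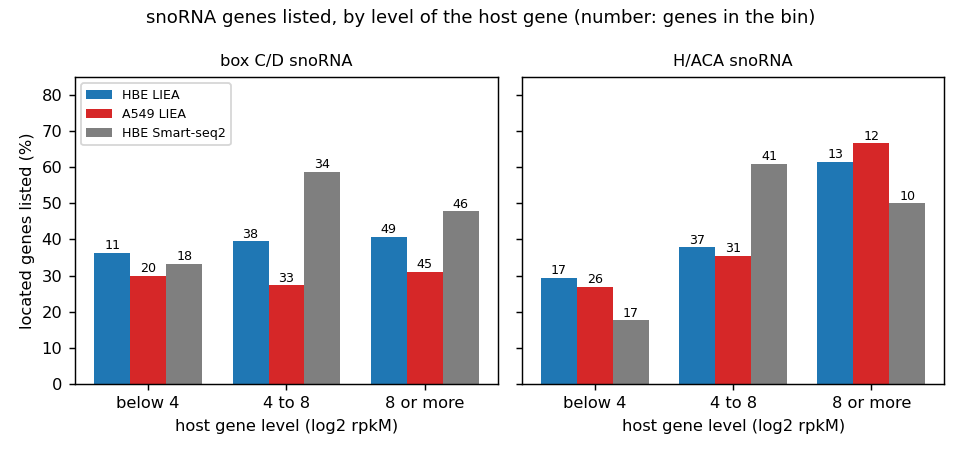
Share of placed snoRNA genes of the annotation that were listed (vertical axis, percent) by the level of the host gene in the same library (horizontal axis, log2 rpkM), for box C/D and H/ACA genes, with the number of genes in each bin above its bar. In the LIEA libraries the box C/D bars stay between 27.3% and 40.8%, while the H/ACA bars rise from 26.9% and 29.4% to 66.7% and 61.5%, the highest bin holding 12 and 13 genes.

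The genes for the proteins that bind or make these RNAs were well covered. All 8 genes for box C/D and H/ACA snoRNP proteins (FBL, NOP56, NOP58, NHP2L1, DKC1, NHP2, NOP10 and GAR1) were listed in each library, with medians of 6.07, 5.78 and 7.12 log2 rpkM. In HBE, 1 of them was at least 2-fold higher by LIEA (of all symbols, 30.1%) and 5 at least 2-fold lower (20.7%). FBL, the methyltransferase of box C/D particles, was higher (log2 ratio 1.38), while DKC1, the pseudouridine synthase of H/ACA particles, was lower (-1.81). Between A549 and HBE by LIEA, where 19.1% of all symbols were at least 2-fold higher and 19.9% lower, 1 was higher (NOP56, 1.02) and 1 lower (NHP2L1, -1.99). Nothing particular to these or the following lists is drawn from counts over so few genes. NOP56 hosts SNORD86 within an exon, and SNORD86 differed in the same direction by 2.47, though its reads cannot be told apart from reads of that exon. The 8 genes for snoRNP assembly and the Cajal body had medians of 4.12, 3.92 and 4.87, and 0 were at least 2-fold higher and 3 lower by LIEA than by Smart-seq2. Of the 11 genes for miRNA processing, 0 were at least 2-fold higher and 4 lower in A549 than in HBE by LIEA, with a median log2 ratio of -0.90. They were DROSHA (-1.57), XPO5 (-1.02), AGO1 (-1.64) and AGO3 (-1.13). By method in HBE, 4 of the 11 were higher by LIEA and 1 lower, DROSHA among the higher (2.30). MVP, the major vault protein, was listed at 6.28, 7.44 and 6.35, while vault RNA genes had a single read. The Y RNA-binding genes TROVE2 and SSB had a log2 rpkM of 3.12 and 4.997 in HBE LIEA, 2.22 and 4.67 in A549 LIEA and 4.33 and 5.64 in HBE Smart-seq2, where no Y RNA gene was listed in any library. Of 9 listed genes for snRNA transcription and processing, 3 were at least 2-fold higher and 2 at least 2-fold lower by LIEA than by Smart-seq2 in HBE, and 1 was higher and 3 lower in A549 than in HBE.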

How the data were processed

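Gene values of 3 libraries with 1 library per group were used, so groups were compared without a test. Per the methods, the authors kept Ion Torrent reads above 42 nt, mapped reads with FANSe2 to RefSeq-RNA, merged splice variants and deposited log2 rpkM per gene. Values carried no pseudocount, and a gene without a value is called not listed. The notes of the submitters name hg19. Here 4 rows of repeated symbols per library and 1589 rows without a gene name in the Smart-seq2 values were left out.

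Reads were recovered as the whole numbers that the values give (within 0.0001 read) at lengths of 40 to 500 nt (longer for the let-7 host genes), nearest to the RefSeq length. The recovery was tested on simulated data. Intervals are exact binomial or conditional exact. Named genes were the members with most reads, the highest rpkM or the largest ratios with at least 10 reads in both libraries, members of 1 library with most reads, the first of each class, and a short list of known RNAs; others named in the text were chosen after their values were seen. Members and lists were chosen with earlier results of these data known. Positions came from RefSeq hairpins matched to GRCh37 (102 of 103) or GENCODE release 44 symbols, of which 40 were not used because chromosome or length differed. Python 3.11.15, numpy 2.4.6, pandas 2.3.3, scipy 1.17.1, matplotlib 3.10.9 and pysam 0.24.0 were used. The host gene and the sequence of 1 member are not reported here.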

Additional observations from a re-analysis of the deposited data

How the results depend on the processing

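No paired analysis was possible because no group had a second library and no result came from a test. Of 28 alternatives, 14 left the value within the limits set for it, 13 moved it and 1 reversed it. Requiring at least 3 reads left 57 members in HBE LIEA, 51 in A549 LIEA and 75 in HBE Smart-seq2, and at least 10 reads left 17, 14 and 17. Without the member with most reads, the share of mapped reads on members was 0.0184%, 0.0160% and 0.00961%. With the smallest whole reads for each member it was 0.0153% in HBE Smart-seq2. The median log2 ratio of HBE LIEA over HBE Smart-seq2 (1.10) was 0.73 with log2(rpkM + 1), 1.74 over the 5 members with at least 10 reads in both libraries, and 1.30 with values rescaled to a sum of 1000000 per library. With log2(rpkM + 1) and unlisted members at 0 (284 members) it was -0.74, as that setting adds the 132 members listed in HBE Smart-seq2 alone of the pair and the 58 listed in HBE LIEA alone of it. The direction of the median between the methods thus depended on how unlisted members were treated. Depth is 1 limit: with 1 read behind 45.8% to 48.0% of the listed members, a missing member cannot be told from one with few molecules.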

Other observations

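Of other short or non-polyadenylated RNA genes outside the symbol rule, 3 were listed in each library. BCYRN1, a cytoplasmic RNA polymerase III transcript, had a log2 rpkM of 6.41 in HBE LIEA, 7.55 in A549 LIEA and 2.41 in HBE Smart-seq2. RMRP, the RNA of RNase MRP, was listed at 4.02 and 3.93 in the LIEA libraries and not in HBE Smart-seq2. RPPH1, the RNA of RNase P, was listed at 1.35, 3.59 and -0.75. TERC, the telomerase RNA, was listed in HBE Smart-seq2 (0.43) and in neither LIEA library. No value for RN7SK, RN7SL1 or RN7SL2 was listed in the libraries used here.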
